A study of Mus musculus with 8 samples.

Results

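Granins and the enzymes that process neuropeptides were examined in bulk RNA-seq of whole mouse brain. The 10 genes were taken by symbol from the deposited table of 24343 genes, and all 10 were found: the granins Chga, Chgb, Scg2, Scg3 and Vgf, the convertase chaperone Scg5, the convertase inhibitor Pcsk1n, the convertases Pcsk1 and Pcsk2, and the carboxypeptidase Cpe. The samples were 8 libraries from 3 C57BL/6NCrl mice aged 56 to 62 days, mice 1 and 2 contributing 3 libraries apiece and mouse 3 contributing 2. There was a single condition, so the only comparison that the labels allow is between individual mice. Neither the sex of the animals nor the meaning of the library numbers is in the labels. Libraries of 1 mouse are not independent animals, and a p-value below describes the spread between these libraries and says nothing of mice in general; that spread may be technical.

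Granins are acidic proteins of the dense-core vesicles in which neurons and endocrine cells store peptides, and several of them are themselves cut into active peptides. Prohormone convertases cut peptide precursors after pairs of basic residues in these vesicles, and a carboxypeptidase then trims the basic residues that the cut leaves behind. Each convertase has a small partner protein, which for Pcsk2 assists its maturation (Scg5, also known as 7B2) and for Pcsk1 holds it inactive (Pcsk1n, also known as proSAAS).

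Promoter windows were read for 8 of the 10 genes from RefSeq on build GRCm38.p6, each covering 250 bases before and 50 after a start given there. The cAMP response element, TGACGTCA, was searched on both strands. It was present in the windows of Chgb, Scg2 and Pcsk1, which makes 3 of 8 windows, compared with 1.79% of 32851 mouse promoter windows and 3.64% of 9818 genes expressed in these brains. Counted from the start of the RefSeq window, it began 72 bases before it in Chgb, 68 in Scg2 and 78 in Pcsk1. The transcripts in the deposited table begin elsewhere: relative to them, the element began 292 bases inside the span of the Chgb transcript, 4 bases before the Scg2 transcript, whose first bases it therefore overlaps, and 208 bases before the Pcsk1 transcript. Its shorter core, TGACG, which overlaps the full element, was present in 7 of the 8 windows, all but that of Pcsk1n, compared with 20.8% of all windows and 35.8% of the expressed genes. The match is of letters only, and no binding was measured. The element is printed in capitals with 11 bases on each side, because it is what these 3 genes share. The stretches lie at chr2:132781559-132781588 on the plus strand (Chgb), chr1:79440076-79440105 on the minus strand (Scg2) and chr13:75089768-75089797 on the plus strand (Pcsk1).
Chgb: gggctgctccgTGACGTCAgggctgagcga
Scg2: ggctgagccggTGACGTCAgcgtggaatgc
Pcsk1: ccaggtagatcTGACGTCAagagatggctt
Of these 3 genes, Chgb differed between the mice, while Scg2 and Pcsk1 did not pass the test of such a difference.

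Levels are FPKM, read fragments scaled for transcript length and for library size, so that genes can be compared with each other. The 10 genes ranged from Pcsk1 at 8.20 ± 0.298 to Cpe at 916 ± 172 FPKM (mean ± SD of 3 mouse means). The median of their means was 84.7 FPKM, compared with 8.81 FPKM for the 13001 genes that averaged 1 FPKM or more. Together they held 0.475 ± 0.0137% of all FPKM (n = 3 mice), of which Cpe alone held 0.262%. The 5 granins held 0.138% in mouse 1, 0.135% in mouse 2 and 0.0971% in mouse 3.

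**Figure D1:**
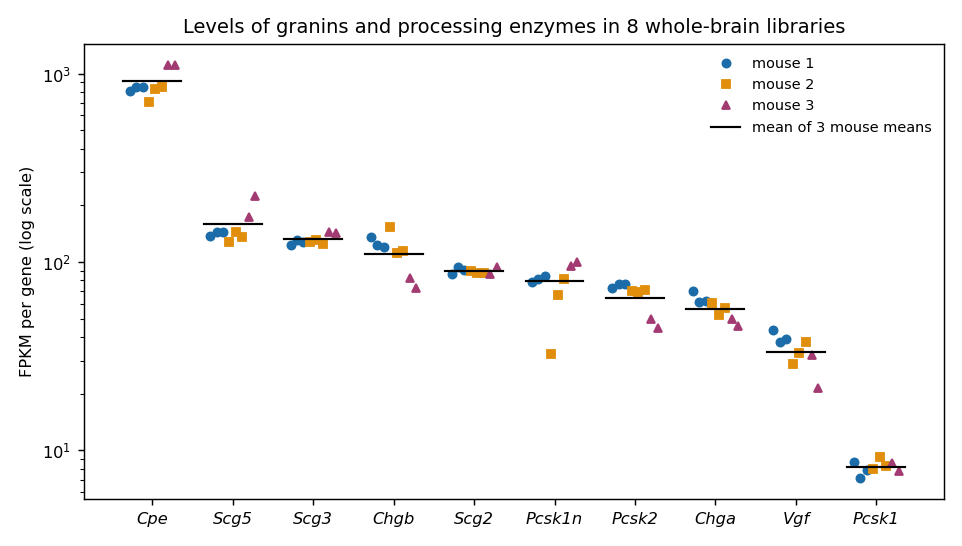
FPKM per gene on a log axis for the 10 genes, 1 symbol per library coloured by mouse, with a line at the mean of the 3 mouse means. Cpe stands at the top at 916 FPKM and Pcsk1 at the bottom at 8.20 FPKM, and both libraries of mouse 3 lie outside the others in Cpe, Scg5, Scg3, Pcsk1n, Chgb, Pcsk2 and Chga.

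From high to low, the order was Cpe, Scg5, Scg3, Chgb, Scg2, Pcsk1n, Pcsk2, Chga, Vgf and Pcsk1. Cpe stood 5.79-fold above Scg5, Chga 1.70-fold above Vgf, and Vgf 4.01-fold above Pcsk1, each in 8 of 8 libraries. Between Scg3 and Pcsk2 the neighbours Scg3 and Chgb, Chgb and Scg2, Scg2 and Pcsk1n, and Pcsk1n and Pcsk2 differed by less than 1 SD between mice. The log2 difference of Scg5 and Scg3 was 0.24 ± 0.21 with the order held in 7 of 8 libraries, and that of Pcsk2 and Chga was 0.17 ± 0.17 with the order held in 6 of 8, so that both were close to their spread (SD, n = 3 mice).

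Among the granins, Chga (chromogranin A, NM_007693, chr12:102554969-102565027 on build mm10, as are the positions of the genes that follow) measured 69.9, 61.2 and 62.5 FPKM in the libraries of mouse 1, 60.5, 52.4 and 56.8 in mouse 2, and 49.9 and 45.5 in mouse 3. Both values of mouse 3 lay below all 6 others. Chgb (chromogranin B, NM_007694, chr2:132781278-132795072) measured 135, 123 and 120 FPKM in mouse 1, 154, 112 and 115 in mouse 2, and 81.9 and 72.9 in mouse 3. Here too the libraries of mouse 3 were the lowest and the groups did not overlap, while the highest value came from library 1 of mouse 2. Scg2 (secretogranin II, the precursor of secretoneurin, NM_009129, chr1:79434669-79440090) measured 86.5, 93.9 and 91.2 FPKM in mouse 1, 89.7, 87.7 and 87.9 in mouse 2, and 86.4 and 94.3 in mouse 3. Its libraries overlapped in all 3 mice, with a coefficient of variation between mice of 1.28%.

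Scg3 (secretogranin III, a granin that binds chromogranin A and vesicle membranes, chr9:75643366-75684056) measured 123, 131 and 128 FPKM in mouse 1, 128, 130 and 125 in mouse 2, and 144 and 142 in mouse 3. Both libraries of mouse 3 lay just above the 6 others. Vgf (a granin induced by nerve growth factor, NM_001039385, chr5:137030295-137033351) measured 43.5, 37.5 and 39.1 FPKM in mouse 1, 28.7, 33.0 and 37.5 in mouse 2, and 32.1 and 21.5 in mouse 3. Its lowest value was library 2 of mouse 3, and the other library of that mouse lay within the range of mouse 2.

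Of the 10 genes, only Scg3 had more than 1 transcript in the table. NM_001164790, of 2192 bases, took 58.6 ± 2.33% of the gene's FPKM and NM_009130, of 2207 bases, took 41.4% (n = 3 mice). NM_001164790 was higher in 8 of 8 libraries, and the confidence bounds deposited with the values overlapped in 0 of them. Matched to GENCODE M21 transcripts, NM_009130 holds 15 further coding bases at chr9:75663193-75663207 on the minus strand, at the edge of exon 9 of 12. They are printed with 12 bases on each side, since they are the coding difference between the transcripts, and capitals mark the 15 bases.
NM_009130: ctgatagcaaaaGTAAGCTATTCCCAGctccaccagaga
NM_001164790: ctgatagcaaaactccaccagaga
The split between the transcripts is an estimate made by the authors' software, and the GENCODE models also differ at their ends. The share of NM_001164790 ran from 55.6% to 62.6% over the libraries.

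**Figure D2:**
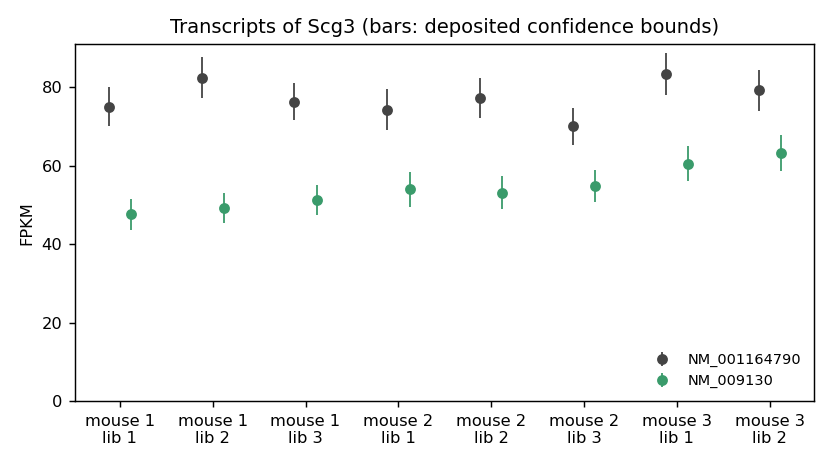
FPKM of both Scg3 transcripts in each library, with the deposited lower and upper confidence bounds as bars. NM_001164790 is above NM_009130 in 8 of 8 libraries, and the bars of the pair overlap in 0.

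Of the partner proteins, Scg5 (NM_009162, chr2:113776313-113829091) measured 137, 144 and 144 FPKM in mouse 1, 128, 144 and 136 in mouse 2, and 173 and 225 in mouse 3. Both libraries of mouse 3 were above the other 6, and library 2 stood apart from library 1. Pcsk1n (NM_013892, chrX:7919822-7924410) measured 78.5, 81.2 and 83.9 FPKM in mouse 1, 32.5, 66.5 and 81.2 in mouse 2, and 94.9 and 100.4 in mouse 3. The libraries of mouse 3 were the highest, but the widest gap lay within mouse 2, whose library 1 was below every other value. The exons of Pcsk1n share 135 bases (6.16%) with the gene Eras on the opposite strand. The strand setting of the quantification is not given, so it is not known whether reads in this stretch were told apart by strand.

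Of the enzymes, Pcsk1 (prohormone convertase 1/3, NM_013628, chr13:75089987-75132498) measured 8.72, 7.12 and 7.90 FPKM in mouse 1, 7.98, 9.25 and 8.29 in mouse 2, and 8.55 and 7.81 in mouse 3. The mice overlapped fully. The deposited Pcsk1 transcript has 2516 bases, whereas the GENCODE transcript matched to it has 5040 exon bases. The effect of this on the level of Pcsk1 and on its ratios was not tested. Pcsk2 (prohormone convertase 2, NM_008792, chr2:143546133-143816282) measured 72.8, 76.9 and 76.1 FPKM in mouse 1, 69.9, 69.6 and 71.4 in mouse 2, and 49.7 and 44.8 in mouse 3. Mouse 3 was below the others, which lay close together. Its exons share 260 bases (5.505%) with the antisense gene Pcsk2os1 and 99 bases (2.10%) with Pcsk2os2, so that reads there carry the same uncertainty. Cpe (carboxypeptidase E, NM_013494, chr8:64592551-64693040) measured 806, 855 and 849 FPKM in mouse 1, 708, 833 and 853 in mouse 2, and 1117 and 1110 in mouse 3. Both libraries of mouse 3 were above the 6 others, and Cpe ranked 19 of 24343 genes by its mean.

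The 3 mice were then compared over all genes with limma on log2(FPKM + 1), using the libraries as replicates, with an F-test for any difference among the mice and Benjamini-Hochberg adjustment over 13001 genes. At an adjusted p under 0.05, 3310 genes (25.5%) differed, 1835 (14.1%) of them higher and 1475 (11.3%) lower in mouse 3 than in the mean of mice 1 and 2. Of the 10 genes here, 5 differed, 2 higher and 3 lower. Most genes tested have lower levels than these 10. In a fit limited to genes averaging 5 FPKM or more, 3231 of 8786 were called, with the same 5 of the 10. Both libraries of mouse 3 lay above all 6 others in 4 of the 10 genes, compared with 26.5% of all 13001 genes tested, and below them in 3, compared with 21.7%. The median absolute difference of mouse 3 was 0.45 on the log2 scale for the 10 genes and 0.24 for all genes tested. Under TPM, in which each library is scaled to the same total, the order was the opposite, at 0.29 for the 10 genes and 0.34 for all genes tested. These TPM values include a shift of all genes, whose median difference was -0.26 on that scale. With the median of each library set equal, they were 0.45 for the 10 genes and 0.24 for all genes tested. The coefficient of variation between mice had a median of 19.3% for the 10 genes and 12.3% for all genes tested, and 7 of the 10 were above the latter. Without library 2 of mouse 3 these medians were 13.0% and 10.5%.

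The called genes included granins, a chaperone, a convertase and the carboxypeptidase. Cpe was higher in mouse 3 by 0.45 ± 0.0879 on the log2 scale (SE, limma adjusted p = 0.0203) and Scg5 by 0.50 ± 0.106 (limma adjusted p = 0.0257). Chgb fell by 0.69 ± 0.128 (limma adjusted p = 0.0174), Pcsk2 fell by 0.61 ± 0.0723 (limma adjusted p = 0.00629) and Chga fell by 0.33 ± 0.0892 (limma adjusted p = 0.0363). Pcsk2 and its chaperone Scg5 thus moved in opposite directions on this scale. In bulk tissue, fewer cells of a type and less RNA per cell cannot be told apart. Vgf at -0.45 (limma adjusted p = 0.0762), Pcsk1n at 0.53 (0.1599), Scg3 at 0.16 (0.205), Pcsk1 at -0.00 (0.704) and Scg2 at 0.01 (0.922) did not pass. The missing call of Pcsk1n goes with a standard error of 0.278, the widest of the 10.

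**Figure D3:**
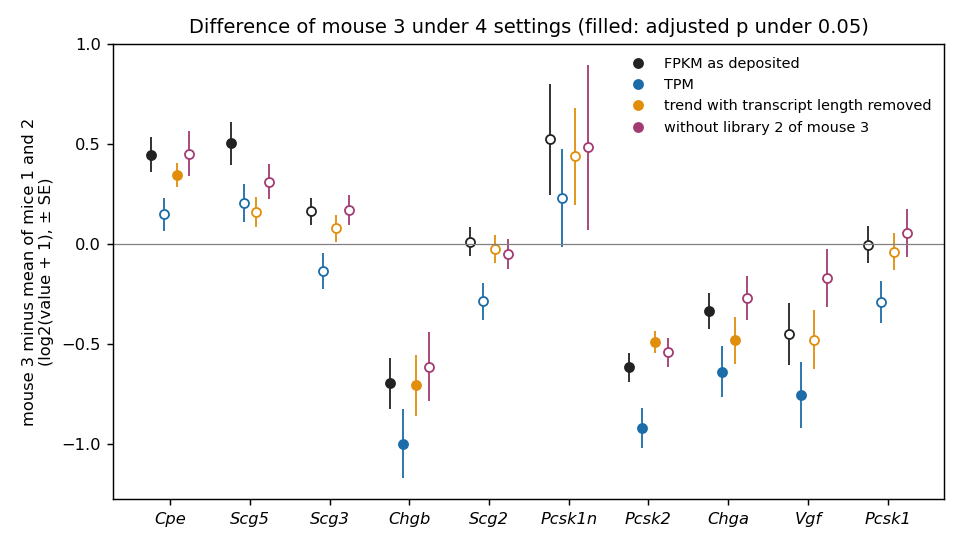
Mouse 3 minus the mean of mice 1 and 2 on the log2(value + 1) scale with its standard error, for the 10 genes under 4 settings. Filled symbols mark an adjusted p under 0.05 in limma's F-test for any difference among the mice. Chgb, Pcsk2 and Chga lie below 0 and Cpe, Scg5 and Pcsk1n above 0 in all 4 settings, and no symbol is filled without library 2 of mouse 3.

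Leaving out single libraries changed calls. Without library 2 of mouse 3, that mouse is a single library, which is assumed to vary like those of mice 1 and 2, from which all of the spread then comes. In that fit limma called 0 of the 10 genes and 126 of all 13001 (0.969%, with 0.661% higher and 0.308% lower). The 5 genes called with all libraries kept the sign of their difference. It was -0.61 for Chgb, -0.54 for Pcsk2, -0.27 for Chga, 0.45 for Cpe and 0.31 for Scg5. Scg5 also lost its call without any 1 library of mouse 1 (adjusted p = 0.0553 to 0.0571), Chga without any 1 library of mouse 1 (0.0690 to 0.0933) or without library 2 or 3 of mouse 2 (0.0510 and 0.0571), and Cpe without library 1 of mouse 3 (0.0557). Vgf gained a call without library 1 of mouse 3 (limma adjusted p = 0.0205, difference -0.73).

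The calls also depended on the scaling. The summed FPKM was 295541 to 345572 in mice 1 and 2 and 384885 to 409889 in mouse 3, and TPM shifted the median difference of all genes from 0.02 to -0.26. Under TPM the called genes were Chgb, Pcsk2, Chga and Vgf, all lower, 4 of 10 compared with 42.3% of all genes called, 36.7% lower and 5.52% higher, while Cpe was at 0.15 (limma adjusted p = 0.297) and Scg5 at 0.21 (0.214). Relative to the median of all genes, the TPM differences were 0.41 for Cpe, 0.46 for Scg5, -0.74 for Chgb, -0.66 for Pcsk2 and -0.38 for Chga. By deposited transcript length, Scg5 is the shortest of the 10 genes at 1227 bases and Pcsk2 the longest at 4743 bases. The libraries differed in a trend with transcript length. At the length of Scg5, the trend fitted over all genes stood at 0.159 and 0.354 on the log2 scale in mouse 3 and between -0.295 and 0.00187 in the other mice. With that trend removed, 4 of the 10 genes were called, Cpe higher and Chga, Chgb and Pcsk2 lower, compared with 20.3% of all genes, 10.8% higher and 9.42% lower. Scg5 was then at 0.16 (limma adjusted p = 0.269) and Pcsk2 at -0.49 (limma adjusted p = 0.0041). Chga lost its call with the median of each library set equal (limma adjusted p = 0.0583) and with the highest transcript of each gene in place of the sum (0.0510). It also did so with the trend in GC content removed, alone (0.0863) or with that in length (0.0760).

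A ratio between a pair of genes within a library does not depend on how the library was scaled, and 7 pairs were compared. The ratio of Pcsk2 to Pcsk1 was 7.52 to 10.8 in the 6 libraries of mice 1 and 2 and 5.74 and 5.81 in mouse 3. Cpe to Pcsk2, the trimming enzyme against the convertase, was 10.1 to 12.0 in mice 1 and 2 and 22.5 and 24.8 in mouse 3. Scg5 to Pcsk2, chaperone against enzyme, was 1.83 to 2.07 in mice 1 and 2 and 3.48 and 5.02 in mouse 3. In each of these 3 pairs mouse 3 lay outside the range of the others. Pcsk1n to Pcsk1, inhibitor against enzyme, overlapped between the mice, at 4.08 to 11.4 in mice 1 and 2 and 11.1 and 12.9 in mouse 3.

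Among the granins, the ratio of Chgb to Chga was 1.91 to 2.54 in mice 1 and 2 and 1.64 and 1.60 in mouse 3. Scg2 to Chgb was 0.584 to 0.784 in mice 1 and 2 and 1.06 and 1.29 in mouse 3, so that Scg2 exceeded Chgb in the libraries of mouse 3 and in no other. Scg3 to Chga was 1.75 to 2.49 in mice 1 and 2 and 2.88 and 3.13 in mouse 3. Thus mouse 3 lay outside the other libraries in 6 of the 7 ratios, with a group of 2 libraries throughout. For Scg5 to Pcsk2, Cpe to Pcsk2 and Scg3 to Chga this was already fixed by the single genes. Both libraries of mouse 3 lay above all 6 others in Scg5, Cpe and Scg3, and below them in Pcsk2 and Chga. Ratios of other gene pairs were not computed, so no background share stands beside the count of 6 ratios. For single genes, both libraries of mouse 3 lay above all 6 others in 26.5% of all genes tested and below them in 21.7%.

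The exact permutation test of the F statistic over 280 groupings of the 8 libraries, for which p cannot go below 0.00357, gave an adjusted p (Benjamini-Hochberg over 7 ratios) of 0.025 for Pcsk2 to Pcsk1, Chgb to Chga and Scg3 to Chga. The exact permutation test gave an adjusted p of 0.0417 for Scg5 to Pcsk2, Cpe to Pcsk2 and Scg2 to Chgb, and 0.0893 for Pcsk1n to Pcsk1. The raw exact p was 0.00357 for Chgb to Chga, 0.0107 for Pcsk2 to Pcsk1 and Scg3 to Chga, 0.025 for Scg5 to Pcsk2, and 0.0357 for Cpe to Pcsk2 and Scg2 to Chgb. Since the ratios share genes and the same libraries of mouse 3, they are not independent of each other or of the single-gene differences. Without the trend with transcript length, the adjusted exact permutation p of the 6 ratios stayed between 0.02 and 0.0417. The deposited ratio of Scg5 to Pcsk2 includes that trend. In mouse 3 the trend stood at 0.159 and 0.354 on the log2 scale for Scg5 and at -0.0466 and -0.141 for Pcsk2. In mice 1 and 2 it ran from -0.295 to 0.00187 for Scg5 and from -0.0297 to 0.0575 for Pcsk2.

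Leaving out single libraries also changed calls for the ratios. Without library 2 of mouse 3, that mouse is a single library and the spread comes from mice 1 and 2 alone, over 70 groupings. Its other library stayed outside the range of mice 1 and 2 in 6 ratios. The unadjusted exact permutation p, which cannot go below 0.0143 there, was 0.0286 for Scg3 to Chga, 0.0429 for Pcsk2 to Pcsk1, 0.0714 for Chgb to Chga, 0.1 for Scg5 to Pcsk2, and 0.143 for Cpe to Pcsk2 and Scg2 to Chgb. Over the 8 fits that each leave out 1 library, the unadjusted exact permutation p was under 0.05 in 8 for Scg3 to Chga, in 7 for Pcsk2 to Pcsk1 and Chgb to Chga, and in 1 for each of Scg5 to Pcsk2, Cpe to Pcsk2, Scg2 to Chgb and Pcsk1n to Pcsk1. The exception was library 2 of mouse 1 for Pcsk2 to Pcsk1 (exact permutation p = 0.0571 without it) and library 2 of mouse 3 for Chgb to Chga. Scg5 to Pcsk2, Cpe to Pcsk2 and Scg2 to Chgb passed without library 1 of mouse 2 (exact permutation p = 0.00952, 0.00952 and 0.0476) and with no other library left out, where p ran from 0.0667 to 0.143.

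**Figure D4:**
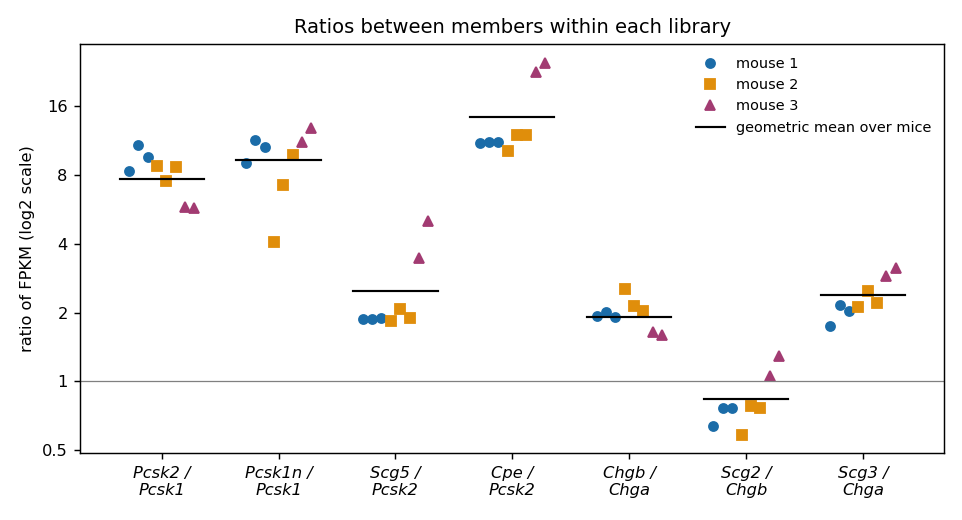
Ratio of FPKM for 7 pairs of the genes in each library, on a log2 axis, 1 symbol per library, with a line at the geometric mean over the mice. The triangles of mouse 3 lie outside the other symbols in 6 of the 7 pairs, with Cpe to Pcsk2 at 22.5 and 24.8 against 10.1 to 12.0. For Scg5 to Pcsk2, Cpe to Pcsk2 and Scg3 to Chga, that position already followed from the single genes. No share over other gene pairs was computed.

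Markers of other cell types moved with the same mouse. Of 8 glial markers, 6 were higher in mouse 3, among them Mbp, the main protein of myelin, by 1.27 ± 0.0915 on the log2 scale (limma adjusted p = 0.00393), and the summed FPKM of all 8 was 1986 to 2186 in mice 1 and 2 and 3815 to 4724 in mouse 3. Mbp alone held most of that sum, at 1253 to 1365 FPKM in mice 1 and 2 and 2836 and 3495 in mouse 3. Of 5 neuronal markers, 2 were lower, with the vesicle protein Syt1 down to -0.73 ± 0.0863 (limma adjusted p = 0.00629), and their summed FPKM was 1759 to 1897 in mice 1 and 2 and 1510 to 1639 in mouse 3. Snap25, the most abundant neuronal marker, was at -0.12 (limma adjusted p = 0.404). Under TPM, 4 of the 5 neuronal markers were lower, compared with 36.7% of all genes. On that scale 2 of the 8 glial markers, Gfap and Mbp, were higher, compared with 5.52% of all genes. Without library 2 of mouse 3, 2 glial markers, again Gfap and Mbp, and 1 neuronal marker, Syt1, were called. The median difference of mouse 3 was 0.44 for the glial and -0.34 for the neuronal markers, compared with 0.02 for all genes tested. The part of cell makeup in the differences of the 10 genes was not tested. All 7 pituitary hormone and lineage markers were below 1 FPKM on average, with a summed level of at most 1.99 FPKM, and 8 markers of other tissues summed to at most 0.965 FPKM.

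**Figure D5:**
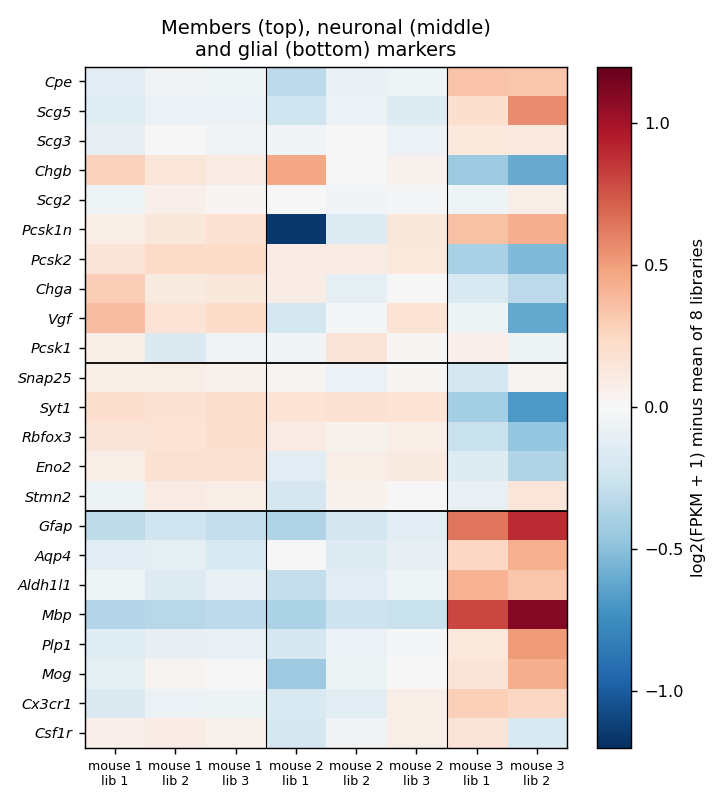
Deviation of log2(FPKM + 1) from the mean of the 8 libraries, 1 column per library and 1 row per gene, for the 10 genes, 5 neuronal markers and 8 glial markers. The columns of mouse 3 are red for Cpe, Scg5, Pcsk1n, Gfap and Mbp and blue for Chgb, Pcsk2, Chga and Syt1, and the single darkest blue field is Pcsk1n in library 1 of mouse 2.

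The other genes of the pathway were read from lists chosen with the 10 genes. Over all genes tested, limma called 14.1% higher and 11.3% lower in mouse 3. Without library 2 of mouse 3, Egr1, lower, was the only gene of these lists called by limma, compared with 0.969% of all genes called. Of 5 other convertases tested, 0 were called by limma and 0 had an unadjusted p under 0.05, and the most abundant was Mbtps1, a convertase of the Golgi, at 17.3 ± 0.766 FPKM. Under TPM, 2 of these 5 were lower, Mbtps1 and Pcsk7, compared with 36.7% of all genes. Of 3 other carboxypeptidases, 0 were called by limma and 1 had an unadjusted p under 0.05, which was the most abundant, Cpd, at 11.04 ± 1.29 FPKM and called lower under TPM. Cpe, at 916 FPKM, was far above the other carboxypeptidases listed. Of 6 genes of other processing steps, such as end modification and cleavage by a lysosomal protease, 2 were higher in mouse 3: that protease, Ctsl, the most abundant at 51.9 ± 9.29 FPKM, and Qpct, the enzyme that forms pyroglutamate ends, by 0.76 ± 0.154 (limma adjusted p = 0.0240). Under TPM only Qpct was higher, and Cyb561 and Rnpep were lower, compared with 5.52% of all genes higher and 36.7% lower. Of 10 other dense-core vesicle genes tested, 2 were lower, the vesicle phosphatase-like protein Ptprn2 and Ica1, by -0.65 ± 0.0897 (limma adjusted p = 0.00815), and the most abundant was Resp18 at 95.6 ± 18.8 FPKM. Their median difference was -0.24, compared with 0.02 for all genes tested. Under TPM, 8 of these 10 were called lower, compared with 36.7% of all genes. Their median difference under TPM was -0.54, compared with -0.26 for all genes.

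Of 28 peptide precursors tested out of 36, 3 were higher in mouse 3, compared with 14.1% of all genes. They were Calca, Pmch and Nts, with Nts, the neurotensin precursor, at 0.74 ± 0.164 (limma adjusted p = 0.0305). The most abundant of the 28 was Cck, the precursor of cholecystokinin, at 198 ± 33.8 FPKM. With the trend with transcript length removed, the 5 precursors called were all lower (Grp, Npy, Pomc, Sst and Tac2), compared with 9.42% of all genes. Under TPM 2 were higher and 3 lower, compared with 5.52% and 36.7% of all genes. The median difference of the 28 was 0.22 as deposited, -0.20 without the length trend and -0.053 under TPM. For all genes it was 0.02, -0.0081 and -0.26. The sign of the list's median thus depended on the scaling, and no direction of the group was tested. Of 11 peptide-degrading peptidases, 1 was lower, Ace, which converts angiotensin, at -0.42 ± 0.0693 (limma adjusted p = 0.0125), and the most abundant was Npepps at 37.2 ± 3.84 FPKM. Under TPM 5 of the 11 were lower, Ace, Ide, Nln, Npepps and Prep, compared with 36.7% of all genes. Of 6 activity-regulated genes, 2 were lower, Junb and Egr1, the latter the most abundant at 20.3 ± 6.26 FPKM and at -0.82 ± 0.0745 (limma adjusted p = 0.00510). Under TPM 4 of the 6 were lower, Bdnf and Nr4a1 besides these, compared with 36.7% of all genes.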

How the data were processed

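Whole-brain RNA of 3 mice was sequenced by the authors in 8 libraries. The authors deposited an FPKM value with confidence bounds per library for 34535 RefSeq transcripts, and a coverage signal per base that is not scaled for library size. The submitters' processing notes name TopHat, Cufflinks and the build mm10, and versions and strand setting are not given in the sources used here. FPKM values are not counts, so count tests and counting intervals were not used. Coverage multiplied by length gave 1.31 to 2.02 gigabases on transcripts per library (median 1.76). Transcripts of a gene were summed, and means were taken per mouse and then over mice.

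Mice were compared with limma 3.58.1 in R 4.3.3 on log2(FPKM + 1) over genes averaging 1 FPKM or more, adjusted by Benjamini-Hochberg over all of them and a threshold of 0.05. A pseudocount of 1 understates changes of low genes. Ratios were compared with an exact permutation test over libraries. The scripts were checked on simulated data. Promoters came from RefSeq and exon overlaps from GENCODE M21. Settings varied were the pseudocount, filter, scaling, transcript length trend, choice of transcript, prior, library-number block and each left-out library. The genes and lists were chosen with earlier results of these data known. Genes named outside the 10 were, from each list, the most abundant and the called gene with the largest difference, and the 3 genes with the most similar deviations across libraries; further list members are named after their values were seen. Library numbers did not pair the mice: correlations of deviations between libraries with the same number were 0.00276 to 0.107, and a pairing required more than 0.1 for every pair.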

Additional observations from a re-analysis of the deposited data

Results flagged for a closer look

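Scg5 in library 2 of mouse 3 measured 225 FPKM, far from the other 7 libraries, whose nearest value was 173 FPKM. The gap took 0.540 of the range of all 8 libraries, above Dixon's critical value for 8 values at the 95% level. It was 1 of 19 measures examined in this way, and chance alone marks about 1 in 20. The lowest value of Pcsk1n, 32.5 FPKM in library 1 of mouse 2, had a gap of 0.501 of the range and did not pass.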

How the results depend on the processing

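Over 20 alternatives, Chgb and Pcsk2 were called by limma in 19, Cpe in 17, Scg5 in 13, Chga in 10 and Vgf in 3, and Chga, Chgb, Vgf, Scg5, Pcsk1n, Pcsk2 and Cpe kept their direction in 20. The number of the 10 genes called was 3 with trends in length and GC content both removed, a setting chosen after seeing the data, and 0 to 5 with 1 library left out. Over all genes, 5493 were called under TPM, of which 13.1% were higher in mouse 3 compared with 55.4% as deposited, and 126 to 3860 with 1 library left out. With the trends in length and GC content both removed, limma called 3183 of all 13001 genes. With the library number as a replicate block, limma called 5 of the 10 genes and 2995 of all genes, of which 67.9% were higher. The block changed no call of the 10 genes. Differences that turned sign had not passed the test. For Scg2 they were -0.28 under TPM, -0.0059 under median scaling, -0.024 with the length trend removed, -0.011 with the GC trend removed, -0.045 with both removed, and -0.049 to 0.076 with 1 library left out. For Scg3 the difference was -0.13 under TPM, and for Pcsk1 it was -0.061 to 0.056 with 1 library left out. With the highest transcript of each gene in place of the sum, the share of all FPKM held by the 10 genes was 0.4995%, and the log2 ratio of Scg3 to Chga was 0.48 compared with 1.25, since Scg3 then counts 1 of its 2 transcripts. Depth limits Pcsk1 most, whose deposited confidence bounds spanned up to 14.0% on either side of the value, compared with 1.66% for Cpe.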

Other observations

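The genes whose deviations across the 8 libraries were closest to the mean deviation of the 10 genes were Hpca, Slc39a7 and H6pd, out of 12991 genes searched. Their root mean square differences from it were 0.0316, 0.0318 and 0.0320 on the log2 scale. That mean holds genes both higher and lower in mouse 3, and the 3 genes varied little, with Hpca, a neuronal calcium sensor, at 221 ± 8.19 FPKM (n = 3 mice).

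Of 5 choroid plexus markers 1 was lower in mouse 3, Kl, at -0.68 ± 0.134 (limma adjusted p = 0.0206), and the most abundant, Ttr, stood at 472 ± 52.3 FPKM. Under TPM, Clic6 was lower as well, where 36.7% of all genes were called lower. Of 5 blood markers 1 was higher, the globin Hbb-bt, at 1.14 ± 0.175 (limma adjusted p = 0.0107), while Hba-a1 stood at 464 ± 52.7 FPKM. Of 2 chromaffin cell markers tested 0 were called by limma and 0 had an unadjusted p under 0.05, and Th, the rate-limiting enzyme of catecholamine synthesis, stood at 6.70 ± 0.545 FPKM. Without library 2 of mouse 3, neither Kl nor Hbb-bt was called by limma.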
